A study of Mus musculus with 15 samples.

Results

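Class I endogenous retroviruses (ERV1) were examined in mouse male germ cells with and without functional Tex15, as long RNA and as piRNA, the 25-30 nt small RNAs that PIWI proteins carry. The piRNA members were all names of class ERV1 among the transposable element (TE) entries of the small RNA tables, 136 of 858 TE names, and they held 1019889 distinct sequences of 25-30 nt. The long RNA members were the consensus sequences that share a name stem with these entries or start with RLTR4, RLTR6, MuRRS, MURVY or MULV, 60 of 359 consensus sequences. Of these 60, 49 had an ERV1 stem and 11 entered by their start alone, with stems such as RLTR40 and RLTR44 that the small RNA tables list as ERVK.

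The study asked whether TEX15, a partner of the PIWI protein MIWI2 in foetal gonocytes, is needed to silence TEs and to make piRNAs. All 15 libraries came from mice of a mixed B6CBAF1/Crl and C57BL/6N background, and every mutant derived from a single founder whose Tex15 allele carries an insertion with stop codons in exon 5. At E16.5, late in gestation, 3 Tex15+/- control and 3 Tex15-/- libraries of ribosomal RNA-depleted RNA were made from gonocytes, the foetal male germ cells, sorted by the tdTomato reporter of a Miwi2tdTom/+ allele that both groups carried. Small RNA came from whole E16.5 testes without a sort, with 6 testes pooled in each of 3 Tex15+/- and 3 Tex15-/- libraries. At postnatal day 20 (P20) only 3 libraries of Tex15-/- testes were analysed here, each from 1 testis, so no genotypes could be compared at that age. For the gonocytes, nothing in the labels says which libraries came from separate animals, and p-values then measure the spread between libraries, which may be partly technical.

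ERV1 elements are retroviral copies in the genome that resemble gammaretroviruses such as murine leukaemia virus (MuLV). A complete copy has an internal part with the gag, pol and env genes between a pair of long terminal repeats (LTRs), and the LTR drives transcription. In foetal gonocytes the genome regains DNA methylation, and piRNAs made from TE transcripts guide both the cleavage of those transcripts in the cytoplasm and, through MIWI2, the methylation of TE copies in the nucleus. Primary piRNAs tend to begin with U, and in the ping-pong cycle the cleavage of a target 10 nt from the 5′ end of the guide yields a partner piRNA that tends to carry A at position 10.

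Examples of these piRNAs are shown first, 1 distinct sequence from each of the 6 ERV1 names with the most piRNA reads, and each is a small part of the reads of its name. It is the most abundant sequence of the name among those that could be shown. Sequences that also match a chromosome not reported here were passed over, which left out between 0 and 8 more abundant sequences per name. Capitals mark bases 1 and 10, the positions that ping-pong biogenesis marks, and T stands for U.
MMERGLN-int: TgcaatatgTagatgatctgctcctagc
RLTR4_MM-int: TagttggctAactagatctgtatctggc
RLTR6-int: CcgtgttgtAgttccaatctggtcgatcc
MuRRS-int: TctgtatttCtgaagccctgagcgagg
MMVL30-int: TggctgactAacgctcttgaaagcatt
RLTR1B-int: AcgtggatcAgatctctggctgcaactg
Of these 6 sequences 4 begin with T and 4 have A at position 10. Each matched GRCm38.p6 perfectly at 7 to 31 places, so none names a single provirus. The RLTR4_MM-int sequence, for example, lay at 30 places on 15 chromosomes, 1 of them chr1:131643462-131643489 on the plus strand.

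The RLTR4_MM-int sequence made up 51.2, 44.91 and 61.36 RPM (reads per 1000000 reads) of TE piRNA in the controls and 34.74, 20.04 and 35.41 in the libraries labelled Tex15-/-. The MMVL30-int sequence stood at 24.5 ± 1.86 RPM in the controls and 12.45 ± 3.48 in the knockouts (mean ± SD, n = 3), and the RLTR1B-int sequence at 16.17 ± 2.64 and 4.72 ± 1.31. For these 3 sequences every knockout library lay below every control library, with the smallest p that 3 libraries against 3 allow (two-sided exact permutation test, p = 0.1). Of the 749 TE names tested, 73.6% also lay below the controls in every knockout, so this order is not particular to these sequences. The knockout and control libraries overlapped for the sequences of MMERGLN-int, RLTR6-int and MuRRS-int (exact permutation p between 0.3 and 0.6).

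The libraries differed in depth and in what else they held. TE consensus sequences took 662394 to 1277612 reads per gonocyte library and 338254 to 397378 per P20 library, and 25-30 nt TE piRNA reads numbered 1995803 to 5478429 per library except in control 2, which had 23244351. Tex15 RNA stood at 1502, 1699 and 1633 CPM (counts per 1000000 gene counts) in the control gonocytes and at 466.3, 222.4 and 243.4 in the Tex15-/- gonocytes. Its log2 fold change of -2.35 ± 0.23 (SE) had an adjusted p of 0.0112 in the quasi-likelihood test of edgeR after Benjamini-Hochberg adjustment, and the groups did not overlap. All gonocyte markers were detected, at 2699 to 2761 CPM in sum in the controls and 2508 to 2675 in the knockouts, without overlap. Of these, Nanos2 was near the floor, at 0.3511 to 2.044 CPM over the 6 libraries, and did not pass the filter on low counts. Markers of most testicular somatic cell types were higher in knockouts 2 and 3: the summed level of 6 interstitial markers was 49.21 to 59.88 in the controls and 51.66, 1173 and 291.3 in knockouts 1, 2 and 3, that of 5 Leydig markers 17.81 to 61.1 against 34.51 to 533.6, and that of 7 Sertoli markers 39.24 to 50.86 against 40.69 to 110.6. Endothelial markers, 5 in all, summed to 54.48 to 57.83 in the controls and 42.48, 195.4 and 53.88 in knockouts 1, 2 and 3, so that knockout 2 alone was higher, and 6 blood and macrophage markers to 11.75 to 14.92 against 12.17 to 43.85. Within the Sertoli sum Dmrt1 held 44.98, 31.27 and 38.12 CPM in the controls and 33.11, 32.12 and 41.99 in the knockouts. Amh, in contrast, was at 0.1836, 0.2044 and 0.8991 against 1.795, 27.56 and 22.67. Wt1 and Inha were also higher in knockouts 2 and 3, while Gata1 overlapped near the floor. No marker was at 0 in all 6 libraries, and the part of somatic cells in the ERV1 values was not tested.

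The genotype of the small RNA libraries could not be checked in the same way. Their titles, genotype labels and the sample columns inside the tables agree, but their lane names carry a T for the controls and a C for the knockouts, whereas the gonocyte file names use C for controls and T for knockouts. Reads that match the Tex15 mRNA in sense numbered 11.71, 17.42 and 6.738 RPM of gene-annotated small RNA in the control libraries and 11.83, 48.17 and 12.29 in those labelled Tex15-/-, so the groups overlapped and the targeted gene did not mark the knockouts. These values rest on only 19, 158 and 15 reads against 20, 67 and 26, too few to decide the genotype. Antisense reads overlapped too, at 5.546, 9.48 and 1.797 RPM against 3.549, 54.64 and 2.836. The piRNA directions given for the knockouts therefore rest on the labels alone, and knockout here means labelled Tex15-/-.

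With TMM scaling, the RNA of MuLV-type proviruses was higher in the Tex15-/- than in the control gonocytes at E16.5. Most other ERV1 sequences were not told apart from the controls. RLTR4I_MM, the internal part of the RLTR4 proviruses, took 6528, 6029 and 6447 RPM of TE RNA in the controls and 7039, 12162 and 10201 in the knockouts. Every knockout library lay above every control, with knockout 1 closest to them. After TMM normalisation, which scales each library so that the typical consensus sequence is level, the values were 5701, 5160 and 5809 against 7394, 14808 and 11862. The log2 fold change of RLTR4I_MM was 1.03 ± 0.18 (standard error, as for every fold change), with an adjusted p of 0.000179 in the quasi-likelihood test of edgeR, Benjamini-Hochberg adjusted over the 301 consensus sequences tested. At a threshold of 0.01 this call was lost without TMM factors, with scaling from gene counts, and without control 2 or control 3, as given below.

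RLTR4_MM, the LTR of the same proviruses, moved with its internal part. Its TMM-normalised values were 463.9, 375.8 and 482.9 in the controls and 561.6, 1193 and 790.3 in the knockouts, and its log2 fold change was 0.94 ± 0.21 (edgeR, Benjamini-Hochberg adjusted p = 0.00242). In RPM of TE RNA without that scaling it stood at 531.2, 439.2 and 536 against 534.6, 979.8 and 679.7, so that knockout 1 fell among the controls.

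RLTR6I_MM is an internal part that the RLTR6 repeats flank. Its TMM-normalised values were 3342, 3277 and 3330 in the controls and 3997, 5082 and 6444 in the knockouts, and it rose by a log2 fold change of 0.64 ± 0.16 (edgeR, Benjamini-Hochberg adjusted p = 0.00886). In RPM of TE RNA its control values of 3827, 3829 and 3696 were overlapped by knockout 1 at 3805, with knockouts 2 and 3 at 4174 and 5542.

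MMERGLN_I, the internal part of the GLN retroviruses and the most abundant ERV1 consensus in gonocytes, did not pass the threshold of 0.01. It took 14807, 13953 and 15438 RPM of TE RNA in the controls and 15623, 13291 and 17665 in the knockouts, and the 2 groups overlapped. With TMM scaling its log2 fold change was 0.45 ± 0.14 (edgeR, Benjamini-Hochberg adjusted p = 0.0301).

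**Figure D1:**
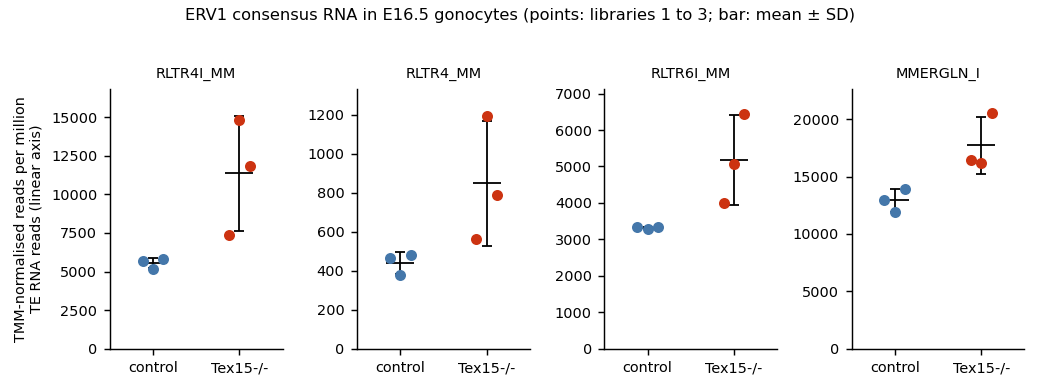
TMM-normalised RPM of TE RNA (linear axes that start at 0) of 4 ERV1 consensus sequences in control and Tex15-/- E16.5 gonocytes; points are libraries 1 to 3 from left to right and bars the mean ± SD. Knockout 1 is the lowest knockout library for RLTR4I_MM at 7394, against 5160 to 5809 in the controls.

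Of the 60 consensus sequences, 48 passed the filter on low counts and 12 did not. The test called 3 members, all higher in the knockouts, where 6.98% of all consensus sequences tested were called higher and 0.664% lower (7.64% in all), and DESeq2 called 3 where it called 8.97% of all. At an adjusted p under 0.05 4 members were called, all higher, or 8.33% of those tested against 9.63% of all. The fitted log2 fold change was above 0 for 18 members and below 0 for 30, with a median of -0.07 beside -0.02 over all consensus sequences. The members as a set, which include sequences with ERVK stems, were therefore called about as often as TE sequences in general, and the calls lay in RLTR4 and RLTR6.

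Without TMM scaling the picture was mostly one of lower values. In RPM of TE RNA, 1 member, RLTR4I_MM, lay higher in every knockout than in any control (2.08% of those tested, against 5.32% of all consensus sequences), and 21 lay lower in every knockout (43.8%, against 45.2%). The median log2 fold change of all consensus sequences moved to -0.39 without TMM factors and to -0.31 with library sizes and factors from the genes of the same libraries. RLTR4I_MM was then at 0.63 (adjusted p = 0.024) and 0.58 (adjusted p = 0.828) by edgeR with Benjamini-Hochberg adjustment, still above 0 but no longer called, and no member was called under either scaling. Of all 301 consensus sequences 16 were called without TMM factors and 1 with gene scaling.

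The other leading members are LTRs and internal parts of VL30, GLN and MuRRS elements. MMVL30, the virus-like 30S element, a defective retroviral RNA that MuLV particles can package, took 2987, 3347 and 3236 RPM of TE RNA in the controls and 2635, 3193 and 2705 in the knockouts. Its groups overlapped, and its log2 fold change of 0.22 ± 0.16 (edgeR, Benjamini-Hochberg adjusted p = 0.457) turned to -0.17 without TMM factors and -0.16 with gene scaling. MuRRS4-int, from the murine retrovirus-related sequences, was at 0.33 ± 0.17 (adjusted p = 0.284) and MMERGLN_LTR, the GLN repeat, at 0.12 ± 0.17 (adjusted p = 0.728) in the same edgeR test. The LTRs RLTR1B_MM, LTRIS3 and LTRIS2, the last pair being repeats of MuRRS elements, lay between -0.12 and 0.00 with adjusted p of 0.726 or above in that test. In RPM of TE RNA all 3 lay lower in every knockout, and without TMM factors they stood at -0.50, -0.45 and -0.39 (edgeR, Benjamini-Hochberg adjusted p = 0.0301, 0.0434 and 0.0703), where the median of all consensus sequences was -0.39.

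Summed over families, the RLTR4 and MuLV sequences took 7059, 6468 and 6983 RPM of TE RNA in the controls and 7574, 13142 and 10881 in the knockouts. This was the only one of 8 family sums in which every knockout library lay above the controls, at 1.54 times the control mean. The RLTR6 and MMVL30 sum was 7747 ± 185.4 and 8102 ± 925.7 (mean ± SD, n = 3), and the MMERGLN sum 15741 ± 719.6 and 16363 ± 2256, both overlapping. The sums for RLTR1 (1282 ± 72.43 and 939.9 ± 75.43), MuRRS and LTRIS (3251 ± 46.12 and 2525 ± 116), MERV1 (418.8 ± 38.11 and 241.7 ± 70.26) and 32 other names (1751 ± 39.7 and 1207 ± 30.47) lay lower in every knockout. The 32 include the 11 names that entered by their start alone. On this scale 45.2% of all 301 consensus sequences lay below the controls in every knockout and 5.32% lay above. MURVY overlapped, at 545.1, 513 and 488.7 in the controls and 364.7, 463.5 and 597.1 in the knockouts. None of the 8 sums could pass a threshold of 0.05 with these numbers (two-sided exact permutation test, lowest p = 0.1, 0.16 after Benjamini-Hochberg adjustment).

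As a share of all TE RNA the members together took 3.772, 3.674 and 3.818% in the controls and 3.632, 4.059 and 4.425% in the knockouts, a difference of 0.2842 percentage points that the libraries' spread covers (two-sided exact permutation test, p = 0.4). Without knockout 1 the difference was 0.488 and without knockout 3 it was 0.0908. TE reads themselves ran at 17.08, 19.92 and 18.99 per 100 gene reads in the controls and at 25.48, 11.63 and 19.57 in the knockouts. Knockout 2, with the most RLTR4I_MM RNA after TMM scaling, was the library with the fewest TE reads per gene read and with the most somatic marker RNA. RLTR4I_MM was lowest in knockout 1, then knockout 3, then knockout 2, as was the interstitial sum at 51.66, 291.3 and 1173 CPM. The Leydig, Sertoli and endothelial sums had that order too, while the blood and macrophage sum did not. Whether any of these are related was not tested. Without knockout 2 the log2 fold change of RLTR4I_MM was 0.79 (edgeR, Benjamini-Hochberg adjusted p = 0.00592), without knockout 3 it was 0.99 (adjusted p = 0.00556) and without knockout 1 it was 1.28 (adjusted p = 5.24e-06).

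The call of RLTR4I_MM depended on the controls. Without control 2 its adjusted p was 0.0336 and without control 3 it was 0.014 in the same edgeR test, at log2 fold changes of 0.98 and 1.04. The count of members called was 2 without control 1 and 0 without control 2 or control 3, where 22 of 311, 8 of 308 and 10 of 310 consensus sequences were called in all. It was 6 without knockout 1, when MMERGLN_I, MuRRS4-int and RLTR6B_Mm joined the 3 and 52 of 310 were called in all. It was 1 without knockout 2 (18 of 312 in all) and 1 without knockout 3 (13 of 316 in all). The calls of the other 2 members were lost more often. That of RLTR6I_MM was lost with any library but knockout 1 left out (log2 fold changes of 0.43 to 0.67, edgeR, Benjamini-Hochberg adjusted p = 0.0303 to 0.164), without the filter on low counts (adjusted p = 0.0131) and with at least 10 counts in every library (adjusted p = 0.0393). That of RLTR4_MM was lost without control 2, control 3, knockout 2 or knockout 3 (adjusted p = 0.0169 to 0.123), with log2 fold changes of 0.83, 0.98, 0.6 and 0.97 in that order, and with at least 10 counts in every library (adjusted p = 0.0174).

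Host genes that act on MuLV-type retroviruses were read from the gene counts of these gonocytes. The list held the receptors Slc7a1 and Xpr1, the KRAB repressor route (Zfp809, Trim28, Setdb1, Yy1, Cbx5, Atf7ip), the histone H3.3 chaperone Daxx with Atrx, and 7 restriction factors such as Fv1, Apobec3 and Samhd1. All 17 were tested and edgeR called 0 of them at an adjusted p under 0.01 or 0.05, where it called 0% and 0.0184% of all 16311 genes. DESeq2 called 0 too, where it called 14 of all 16311. Even the targeted gene Tex15, with an adjusted p of 0.0112 by edgeR, was not called at 0.01. The absence of calls among the 17 therefore says little about them. At an unadjusted p under 0.05, 1 gene was higher (Trim28, the corepressor that KRAB zinc finger proteins recruit) and 1 was lower (Atrx, a chromatin remodeller), where 6.05% of all genes were higher and 3.15% lower. Trim28 stood at 281.7, 227.3 and 256.8 CPM in the controls and 309.5, 292.1 and 309 in the knockouts, and Atrx at 276.2, 277.1 and 299 against 250.5, 176.4 and 183. The groups did not overlap for either gene, and the Benjamini-Hochberg adjusted p of edgeR was 0.477 for Trim28 and 0.46 for Atrx. They did not overlap for Atf7ip either (327.2, 326.4 and 331.9 against 323.1, 293.8 and 298.2 CPM). The share of all genes without overlap was not counted. Without knockout 1 Atrx was called at a log2 fold change of -0.61 (adjusted p = 0.00265), in a fit that called 388 of 17520 genes. Trim28 and Atrx were picked out here for their unadjusted p, after their values were seen.

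In P20 testes without Tex15, ERV1 RNA was led by VL30 and MuLV sequences. The members took 5.03, 4.5 and 3.38% of TE RNA reads (4.31% ± 0.84, SD, n = 3), and 56 of the 60 had reads, of 328 consensus sequences with any. MMVL30 alone took 26624, 24399 and 17281 RPM of TE RNA, and RLTR4I_MM came next with 10640, 8993 and 6870. For both, testis 1 was highest and testis 3 lowest, and so it was for the repeats of these elements: RLTR6_MM was at 4025, 3619 and 2720 and RLTR4_MM at 1536, 1304 and 1002 RPM.

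Other leading names at P20 came from GLN, VL30 and MuRRS elements. MMERGLN_I, first among ERV1 sequences in the gonocytes, stood at 2269, 1694 and 1676 RPM of TE RNA, and RLTR6I_MM at 1229, 1129 and 810.3. The MuRRS repeats LTRIS2, LTRIS_Mus, LTRIS3 and LTRIS ranged from 214 in 1 testis for LTRIS to 924.6 for LTRIS2. LTRIS2 shared the pattern of the VL30 and MuLV sequences, while LTRIS_Mus (537.8, 538.1 and 558.7), LTRIS (214, 245.4 and 264.2) and LTRIS3 (348.4, 384.3 and 289.4) did not. The P20 libraries were made with another protocol and from whole testis, and no control library of that age was analysed here. The levels at both ages are therefore given side by side and not compared.

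ERV1 piRNAs made up a smaller share of TE piRNAs in the libraries labelled Tex15-/-. They took 10.42, 10.33 and 10.15% of 25-30 nt TE reads in the controls and 7.721, 4.433 and 6.704% in the knockouts, a difference of -4.015 percentage points, or 0.6102 times the control share (p = 0.1 in a two-sided exact permutation test, its lowest possible value here). Knockout 2 had the lowest share, and without it the difference was still -3.09 points. Against all 25-30 nt reads of the tables the shares were 7.652, 7.874 and 7.38% and 6.359, 3.197 and 5.446%, again without overlap.

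Other TE classes differed as well. ERVK, which holds the IAP elements, stood at 29.11% ± 2.238 in the controls and 41.89% ± 1.282 in the knockouts (SD, n = 3) of TE piRNA reads without overlap, while L1 overlapped at 45.36% ± 1.98 and 43.43% ± 1.118 and ERVL-MaLR went from 4.735% ± 0.4814 to 2.515% ± 0.1586. B2 went from 3.136% ± 0.2829 to 1.482% ± 0.2714 and Alu from 2.85% ± 0.341 to 1.233% ± 0.2951. ERVL-MaLR, B2 and Alu lay below the controls in every knockout. They stood at 0.5311, 0.4726 and 0.4327 times the control share, all lower ratios than the 0.6102 of ERV1. A share falls when another class rises, so the ERV1 share was also taken outside ERVK, an alternative chosen after seeing the data. It was then 15.21, 14.51 and 13.91% in the controls and 13.16, 7.826 and 11.36% in the knockouts, still without overlap. Per 100 small RNA reads of 21-23 nt, ERV1 piRNA reads numbered 5.147, 5.746 and 5.291 in the controls and 4.508, 1.305 and 3.236 in the knockouts. These groups did not overlap either, though this too is a ratio. Whether there was less ERV1 piRNA or more of other piRNAs cannot be told apart from shares, and in whole testes neither can fewer germ cells and less piRNA per germ cell.

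Per name, most ERV1 entries lay lower in the knockouts, as most TE names did. Of the 136 ERV1 names 105 passed the filter on low counts. In RPM of TE piRNA 80 of the 105 lay lower in every knockout than in any control (76.2%, against 73.6% of all 749 TE names) and 1 lay higher (0.952%, against 1.74%). Both shares are near the background.

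edgeR's quasi-likelihood test with TMM scaling, which centres on the typical TE name, called 0 ERV1 names at a Benjamini-Hochberg adjusted p under 0.01, where it called 0.134% of all names. At an unadjusted p under 0.05 it had 8 ERV1 names higher and 19 lower, or 7.62% and 18.1% of those tested, beside 14% and 9.75% of all names. The median log2 fold change was -0.15 over the ERV1 names and 0 over all. DESeq2 called 6 names, MER110 and MER72B higher and MURVY-LTR, RLTR1D2_MM, RLTR41 and RMER2 lower, where it called 8.54% of all names. With total counts in place of TMM factors, 57 ERV1 names were called and all 57 were lower, where 50.6% of all names were called.

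The internal parts with most piRNA reads show both readings. MMERGLN-int took 26019, 24309 and 19714 RPM of TE piRNA in the controls and 19297, 10699 and 15579 in the knockouts, and RLTR4_MM-int 16475, 16184 and 13989 against 13537, 4903 and 11867. Every knockout lay below the controls for both. With TMM scaling their log2 fold changes were 0.26 ± 0.30 and 0.28 ± 0.42 (edgeR, Benjamini-Hochberg adjusted p = 0.672 and 0.76), and without it both were -0.62. With a library left out the TMM-scaled values ran from 0.05 to 0.51 for MMERGLN-int and from 0.02 to 0.65 for RLTR4_MM-int, lowest without knockout 1 and highest without knockout 2, and neither passed the test. The direction of these GLN and MuLV piRNAs thus turned with the scaling, as did that of RLTR6-int, MuRRS-int, RodERV21-int and LTRIS_Mm.

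For RLTR6-int and MuRRS-int the groups overlapped. RLTR6-int was at 12035, 11839 and 11053 RPM of TE piRNA in the controls and 12619, 3145 and 10029 in the knockouts, and MuRRS-int at 9354, 9585 and 8589 against 9509, 6397 and 9162. Knockout 2 was lowest in both, and knockout 3 of RLTR6-int also lay below the controls.

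MMVL30-int and RLTR1B-int had negative fold changes under either scaling, and neither passed the test with TMM. MMVL30-int was at 5193, 5707 and 6499 RPM of TE piRNA in the controls and 2860, 1328 and 2692 in the knockouts, and RLTR1B-int at 4211, 4496 and 5674 against 1828, 935.5 and 1586. Their log2 fold changes were -0.43 ± 0.34 and -0.81 ± 0.30 with TMM scaling (edgeR, Benjamini-Hochberg adjusted p = 0.497 and 0.17) and -1.34 and -1.72 without it. Without knockout 2 the TMM-scaled values were -0.11 for MMVL30-int and -0.53 for RLTR1B-int. The MuLV-type repeat RLTR4_Mm stood at 3207, 3137 and 2808 against 1703, 839.3 and 1537 RPM, and MuRRS4-int at 2613, 2991 and 4555 against 1412, 1136 and 1386, so both lay lower in every knockout as well.

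**Figure D2:**
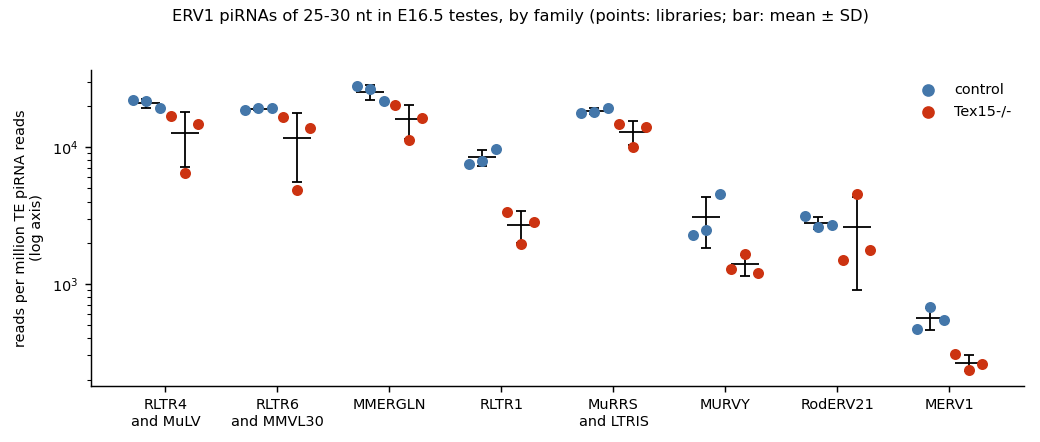
RPM of TE piRNA (log axis) of ERV1 piRNAs of 25-30 nt by family in E16.5 testes labelled control or Tex15-/-; points are libraries and bars the mean ± SD. The RLTR1 knockouts sit between 1944 and 3360, all under the controls at 7560 to 9701, while RodERV21 overlaps.

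By family, RLTR1 piRNAs differed by the largest ratio of the 9 sums, with 8402 ± 1141 RPM of TE piRNA in the libraries labelled control and 2715 ± 716.7 in those labelled Tex15-/- (mean ± SD, n = 3), or 0.3231 times the mean of the former. These ratios take their direction from the labels, which the Tex15 reads could not check. The MuLV-type RLTR4 names stood at 0.6043 times, RLTR6 and MMVL30 at 0.6145, MMERGLN at 0.6294, MuRRS and LTRIS at 0.7019, MURVY at 0.4515 and MERV1 at 0.4728. The 102 other names stood together at 0.5996 times. In each of these 8 sums of the 9 every knockout library lay below the controls (two-sided exact permutation test, p = 0.1, or 0.1125 after Benjamini-Hochberg adjustment over 9 sums), and RodERV21 overlapped. Of all TE names 73.6% lay below in every knockout, and without TMM factors all TE names had a median log2 fold change of -0.88.

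Within ERV1 piRNAs the RLTR1 share was lower in every knockout. RLTR1 took 7.256, 7.693 and 9.554% of ERV1 piRNA reads in the controls and 4.353, 4.385 and 4.236% in the knockouts, and MuRRS and LTRIS 16.88, 17.61 and 19.02% against 19.02, 22.49 and 20.9%. For MuRRS and LTRIS the highest control and the lowest knockout were equal to the digits given. Both had the lowest p possible (two-sided exact permutation test, p = 0.1, or 0.45 after Benjamini-Hochberg adjustment), and the other 7 of 9 family shares overlapped. RodERV21 was at 10.32% in knockout 2 and at 1.935 to 2.994% in the other 5 libraries.

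MER110 was the 1 ERV1 name with an adjusted p under 0.05 in the piRNA fit, where 3.2% of all names were. It stood at 83.16, 106.9 and 69.01 RPM of TE piRNA in the controls and at 118, 252.5 and 149.1 in the knockouts, with a log2 fold change of 1.82 ± 0.30 (edgeR, Benjamini-Hochberg adjusted p = 0.0265). Its reads are not spread over an element: 4712 of 5054, or 93.2%, begin with the whole mature sequence of the microRNA miR-672-5p, given here from RefSeq with the seed (bases 2 to 8) in capitals.
miR-672-5p: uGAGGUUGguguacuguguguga
The mature sequence lies at chrX:104116228-104116250 on the minus strand of GRCm38.p6, and the share of MER110 reads that begin with it was 90.9 to 95.6% over the 6 libraries. MER110 reads in these tables are therefore mostly microRNA sequence extended past its 3′ end. Over all ERV1 names such sequences were rare, with 34 sequences and 5702 reads (0.137% of ERV1 reads) in 8 names beginning with any of 1674 mature mouse miRNAs.

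ERV1 piRNAs had the usual first-base bias in all 6 libraries. The share of ERV1 reads that begin with U was 69.9, 69.52 and 68.82% in the controls and 70.25, 75.09 and 70.18% in the knockouts, all 3 above the controls (two-sided exact permutation test, p = 0.1, or 0.1833 after Benjamini-Hochberg adjustment). Without knockout 2 the difference went from 2.43 to 0.801 percentage points. With each distinct sequence counted once it was 2.13 points (two-sided exact permutation test, p = 0.3). Over TE piRNA reads outside ERV1 the share with U was 71.47% ± 1.312 in the controls and 72.3% ± 1.297 in the knockouts (SD, n = 3), with overlap. Among the 10 ERV1 names with most reads the share ran from 58.67% ± 1.148 in LTRIS_Mm to 82.58% ± 0.7411 in RodERV21-int in the controls.

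The A at position 10 that marks ping-pong partners was less frequent in every knockout for several of the 10 ERV1 names with most reads. Over all ERV1 reads it stood at 42.15, 42.84 and 42.81% in the controls and 42, 36.77 and 41.88% in the knockouts, and without knockout 2 the difference shrank from -2.38 to -0.658 percentage points. With each distinct sequence counted once it was -0.964 points (two-sided exact permutation test, p = 0.5). Over TE piRNA reads outside ERV1 the share was 43.91% ± 1.291 in the controls and 43.77% ± 2.897 in the knockouts (SD, n = 3), with overlap. RLTR4_MM-int was at 45.03, 44.98 and 46.31% in the controls and 43.35, 39.64 and 44.16% in the knockouts, with knockout 2 the farthest from the controls. RLTR1B-int was at 41.76% ± 0.6692 and 37.67% ± 1.032 (SD, n = 3), and every knockout lay below the controls in both (two-sided exact permutation test, p = 0.1, or 0.1538 after Benjamini-Hochberg adjustment over 20 tests). MMVL30-int, MuRRS4-int, RLTR4_Mm and RodERV21-int also lay below the controls in every knockout, while MMERGLN-int, RLTR6-int, MuRRS-int and LTRIS_Mm overlapped. How many names outside ERV1 lay below was not counted.

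Pairs of ERV1 piRNAs from opposite strands overlapped most often by 10 nt, the ping-pong distance, in every library. Of overlaps of 1 to 30 nt weighted by reads, 17.6, 16.3 and 16% in the controls and 14.3, 17.6 and 15.1% in the knockouts were of 10 nt, where an even spread would give 3.33%. The means of 16.63% ± 0.84 and 15.66% ± 1.75 (SD, n = 3) differed by less than the spread (two-sided exact permutation test, p = 0.5). With each 5′ end counted once and not by its reads, the 10 nt share was nearer the even one. It was then 4.28% ± 0.3 in the controls and 4.73% ± 0.55 in the knockouts. The following pairs show such overlaps on chromosome 1 in GRCm38.p6. Each sequence has 1 perfect match in the genome, and they were chosen after their values were seen. Capitals again mark bases 1 and 10.
RLTR48B plus: TagatcaacTgtattttagacaatcggg
RLTR48B minus: AgttgatctAtactttttgtgaaggggc
MuRRS-int plus: TagatcctgAgtaagaactcctctgg
MuRRS-int minus: TcaggatctAgggccgtgcaagaggccgg
The RLTR48B pair lies at chr1:156074394-156074421 and chr1:156074376-156074403, and the MuRRS-int pair at chr1:100780291-100780316 and chr1:100780272-100780300. In each pair the first 10 bases of the plus-strand sequence are the reverse complement of those of the minus-strand sequence. The RLTR48B plus sequence stood at 10.53 ± 3.17 RPM of TE piRNA in the controls and 5.94 ± 0.85 in the knockouts (mean ± SD, n = 3), with every knockout below the controls (exact permutation p = 0.1), and the other 3 overlapped.

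By family the read-weighted 10 nt share of RLTR4 and MuLV piRNAs was 17.37, 16.86 and 18.29% in the controls and 11.07, 9.93 and 11.43% in the knockouts, without overlap (two-sided exact permutation test, p = 0.1). RLTR1 stood at 9.9% ± 0.56 and 7.35% ± 1.44 (SD, n = 3, exact permutation p = 0.1). The means of MMERGLN (16.42% and 19.68%), RLTR6 and MMVL30 (14.95% and 16.74%), MURVY (9.42% and 13.68%) and RodERV21 (15.23% and 25.52%) were higher in the knockouts. Those of MuRRS and LTRIS (15.81% and 14.78%), MERV1 (6.07% and 2.62%) and the other names (22.52% and 19.69%) were lower. The exact permutation p of all these was 0.2 to 0.6. When each 5′ end was counted once and not by its reads, an alternative chosen after seeing the data, the RLTR4 and MuLV share was 4.25% in the controls and 4.87% in the knockouts (exact permutation p = 0.5) and that of RLTR1 4.11% and 4.94% (exact permutation p = 0.1). In this count MMERGLN (4% and 4.57%) and MURVY (5.61% and 6.03%) were also higher and MERV1 (4.87% and 1.19%) lower (exact permutation p = 0.1 each). The remaining families had larger p. No p-value of these overlap shares was adjusted for the number of families. The RLTR4 and MuLV share was thus lower in the knockouts when weighted by reads and not when each position counted once. In some families 10 nt was not the most frequent overlap by reads. It was 21 nt for RLTR4 and MuLV in knockout 2, and 25 and 24 nt for RLTR1 in knockouts 1 and 2. For MERV1 it was another distance in every library, and for MURVY and RodERV21 in some. RodERV21 shares at 10 nt ran from 3.12 to 38.55% in the knockouts.

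**Figure D3:**
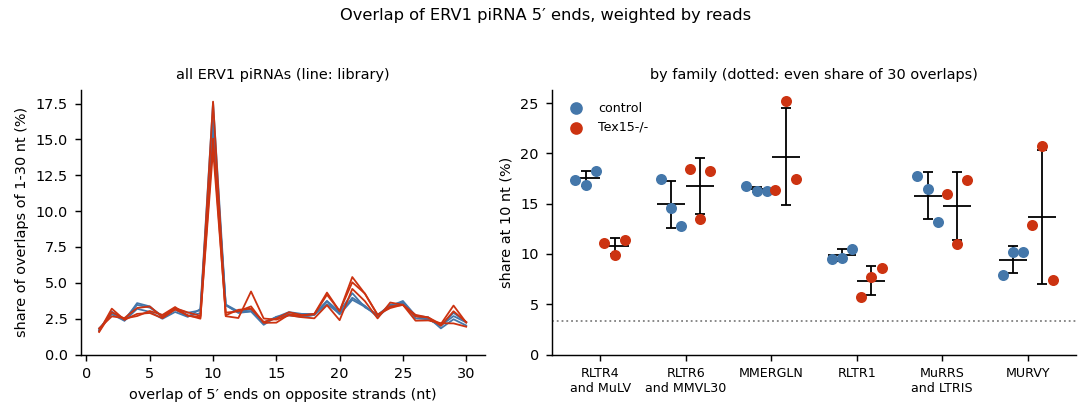
Left, share of overlaps of 1-30 nt (%) against the overlap of 5′ ends on opposite strands (nt) for all ERV1 piRNAs, a line per library, weighted by reads. Right, the share at 10 nt by family, with points for libraries, bars for the mean ± SD and a dotted line at the even share of 3.33%; the RLTR4 and MuLV knockouts sit at 9.93 to 11.43%, under the controls at 16.86 to 18.29%.

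The genome shows which ERV1 piRNAs can be traced to a place. Of ERV1 piRNA reads 84.4 to 86.4% matched GRCm38.p6 perfectly, and 14.2 to 23.9% did so at 1 place only, most in knockout 2. Only 3.9 to 5.9% of RLTR4 and MuLV reads had a single match, against 73 to 75.4% of RodERV21 reads.

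**Figure D4:**
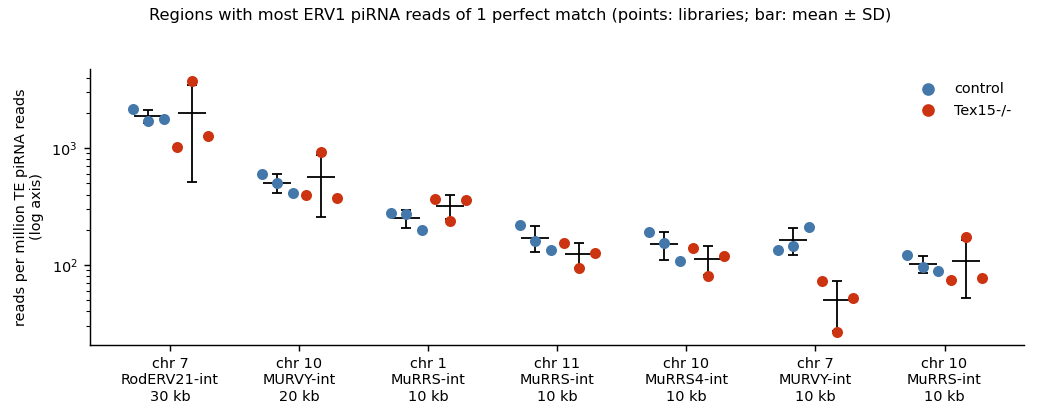
RPM of TE piRNA (log axis) with 1 perfect match in the 7 regions that hold most ERV1 piRNA reads of that kind, named by chromosome, leading ERV1 name and length; points are libraries and bars the mean ± SD. In the region on chromosome 7 led by MURVY-int the knockouts sit at 26.56 to 72.72, under the controls at 134.07 to 212.61, and in the other regions the groups overlap. Of all TE names 73.6% lay below the controls in every knockout.

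Reads with a single match gathered in a few regions. The 10 windows of 10 kb with most of them held 15.18 to 23.76% of these reads in 5 libraries and 49.82% in knockout 2. The largest region, chr7:6620001-6650000, lay outside annotated genes, was led by RodERV21-int (88.48% of its reads), and gave reads from the minus strand only. It stood at 2173.98, 1701.23 and 1784.06 RPM of TE piRNA in the controls and at 1023.71, 3729.33 and 1278.1 in the knockouts, so knockout 2 was the highest and the other 2 the lowest of all. Another region with reads of 1 strand, chr10:83410001-83430000, led by MURVY-int, gave at least 99.9% plus-strand reads and had the same order, with 597.94, 503.48 and 415.52 against 398.94, 927.95 and 377.3.

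A region led by MuRRS-int, chr10:83380001-83390000, had that order too, with 99.3 to 100% plus-strand reads and 121.34, 96.75 and 87.84 RPM in the controls against 73.93, 172.36 and 77.94 in the knockouts.

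Other regions led by MuRRS elements did not follow it. chr1:100780001-100790000, which holds the MuRRS-int pair shown above, had 29.96 to 42.51% plus-strand reads and stood at 250.61 ± 43.6 RPM in the controls and 321.35 ± 72.69 in the knockouts (mean ± SD, n = 3, exact permutation p = 0.3). chr10:51530001-51540000, led by MuRRS4-int and overlapping the lincRNA Gm46224, was at 150.08 ± 40.96 and 113.14 ± 30.84 (exact permutation p = 0.3). In 1 of the 7 regions, chr7:18380001-18390000 led by MURVY-int, every knockout lay below the controls, with 134.07, 144.38 and 212.61 against 72.72, 26.56 and 51.66 (two-sided exact permutation test, p = 0.1). Of the 749 TE names tested 73.6% lay below in every knockout, so this order is not particular to that region. The share over all 16672 windows with such reads was not counted. For MURVY, named after retroviral copies on the Y chromosome, each genome-matched piRNA read was divided evenly over its perfect matches. The part that fell to the Y chromosome was 17.08, 22.84 and 39.43% in the controls and 15.69, 4.72 and 19.07% in the knockouts, with the groups overlapping. Reads with several matches are not located by this.

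The long RNA and piRNA levels of the same element went together across names. Among the 123 ERV1 name stems of the small RNA, 44 had a long RNA counterpart, and over these 44 the control levels had a Spearman rho of 0.79 and a Pearson r of 0.85 on log10 values. This describes names that share stems and come from separate libraries, and lengths enter both levels. For the RLTR4 stem the RNA mean was 6837 RPM of TE RNA in the controls and 10532 in the knockouts, while the piRNA mean was 18600 and 11462 RPM of TE piRNA. For the MMERGLN stem the means were 15741 and 16363 for RNA and 25282 and 15912 for piRNA.

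**Figure D5:**
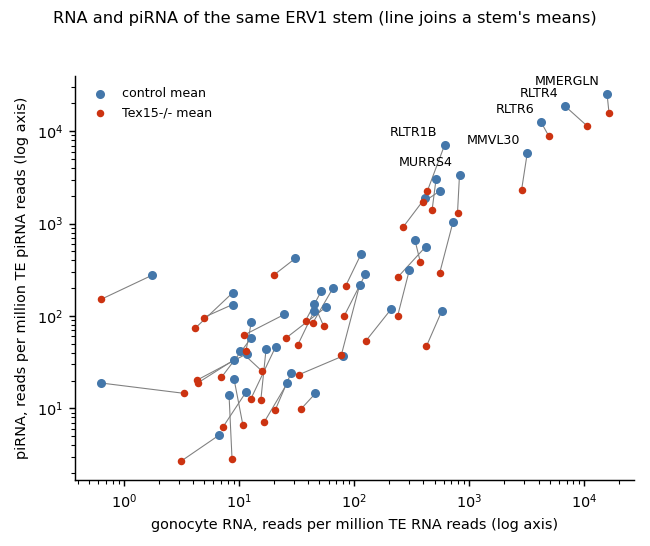
Mean piRNA RPM of TE piRNA against mean gonocyte RNA RPM of TE RNA (log axes) for ERV1 name stems found in both, with a line from the control to the Tex15-/- mean of each stem; stems at 0 in a knockout mean have no knockout point. RLTR4 moves furthest to the right of the labelled stems, from 6837 to 10532 in RNA, while its piRNA level goes from 18600 to 11462.

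How a read was named by the authors bears on these levels. Of ERV1 piRNA reads 89.36 to 90.15% belonged to sequences with the same TE name in every library and 98.56 to 99.45% to sequences listed as ERV1 in every library. A sequence found in 1 library only meets both conditions by itself. Of the 221814 distinct ERV1 sequences found in at least 2 libraries, 93.17% kept 1 TE name and 99.47% were ERV1 in each. Reads of sequences listed as ERV1 in another library but outside it here equalled 1.24, 1.15 and 1.24% of ERV1 reads in the controls. In the knockouts they equalled 1.71, 3.84 and 2.02%, all above the controls, and the cause was not tested.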

How the data were processed

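The authors deposited whole-number counts. Gonocyte reads were aligned with HISAT2 and counted per gene with HTSeq 0.11.1, TE reads were counted per Repbase consensus sequence after Bowtie2 2.3.4.3, and small RNA was trimmed with cutadapt 1.8.1, mapped with Bowtie 1.2.1.1 and tabled as counts per distinct sequence, with 1 annotation each (GRCm38). The strand of counting is not given in the sources used here. Gene table entries that name no gene held 61.3 to 67.3% of the counts and were left out.

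Genotypes were compared with edgeR 4.0.16 (R 4.3.3; TMM, filterByExpr with a minimum count of 10, quasi-likelihood F-test) over all features, with Benjamini-Hochberg adjustment and a call at an adjusted p under 0.01, and with DESeq2 1.42.0 as an alternative. Per-library values were compared with two-sided exact permutation tests (scipy 1.17.1), whose smallest p is 0.1. The scripts were tested on simulated counts. Perfect matches were sought in GRCm38.p6, and strand and position came from those matches. The named sequences were RLTR4I_MM, members with an adjusted p under 0.05 and, per assay, the 10 members with most reads, and other names were added after their values were seen. Members and lists were chosen with earlier results of these data known. Replicate numbers did not pair the libraries.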

Additional observations from a re-analysis of the deposited data

How the results depend on the processing

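The number of ERV1 consensus sequences called in gonocytes (3, of 23 called among 301 in all) was 1 with at least 10 counts in every library (17 of 253 in all), 1 with an absolute log2 fold change above 1 (10 of 301), 0 without TMM factors (16 of 301), 0 with gene scaling (1 of 301), and 0 to 6 with a library left out. The number of ERV1 piRNA names called (0, of 1 called among 749 in all) was 57 without TMM factors (379 of 749 in all), 53 with library sizes from 18-32 nt reads (376 of 749), 53 with those from 21-23 nt reads (350 of 749), 6 with DESeq2 (64 of 749), 1 with each sequence counted once (29 of 728) and 1 at an adjusted p under 0.05 (24 of 749). The number of host genes called (0, of 0 among 16311 in all) was 0 to 1 with a library left out, the 1 being without knockout 1 (388 of 17520 in all). The remaining 73 comparisons of a result with an alternative kept the sign of a difference, a similar count of calls or, at P20, a share within the SD. Sizes still moved in some of them. Without the filter on low counts 2 consensus sequences were called (22 of 359 in all). The difference in A at position 10 went from -2.38 to -0.964 percentage points with each distinct sequence counted once. The cause of these changes was not tested.

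Directions turned for some names. In RNA, without TMM factors and with gene scaling, the log2 fold change was -0.17 and -0.16 for MMVL30, -0.27 and -0.24 for MMERGLN_LTR and -0.06 and -0.05 for MuRRS4-int. With a library left out MMERGLN_LTR ran from -0.02 to 0.28 and LTRIS2 from -0.09 to 0.11. In piRNA, without TMM factors and with library sizes from 18-32 nt and 21-23 nt reads, it was -0.62, -0.68 and -0.74 for MMERGLN-int, -0.62, -0.64 and -0.7 for RLTR4_MM-int, -0.44, -0.43 and -0.48 for RLTR6-int, -0.14, -0.21 and -0.28 for MuRRS-int, -0.1, -0.38 and -0.51 for RodERV21-int and -0.42, -0.5 and -0.57 for LTRIS_Mm. The median of all TE names was -0.88, -1.01 and -1.11 under these scalings. RLTR4_Mm was 0.06 with each sequence counted once and -0.46 to 0.03 with a library left out. With 5′ ends counted once, a choice made after seeing the data, the 10 nt share differed by 0.45 percentage points over all ERV1 and by 0.62 for RLTR4 and MuLV.

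With the replicate number as a block, 3 consensus sequences, 0 piRNA names and 0 host genes were called (24 of 301, 0 of 749 and 0 of 16311 in all), and RLTR4I_MM stood at 0.98. Same-numbered libraries correlated at 0.02 to 0.11 in TE RNA, -0.24 to 0.13 in piRNA and -0.14 to -0.01 in genes, so the block was not read as a pairing.

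With 3 libraries a group the permutation tests cannot pass 0.05. The sequences listed under 1 TE name were all sequences, so that alternative equals the reported value.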
